A study of Homo sapiens with 2 samples.

Results

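The genes described here are 7 Krüppel-like factors, KLF1, KLF2, KLF3, KLF4, KLF6, KLF10 and KLF13, together with the repressors GFI1 and GFI1B. They were chosen by name, and their probes were those that the array design annotated with the gene's symbol and a distance to its transcription start. Of the 9 genes, 8 were found, among 17280 genes named on the arrays, and they held 256 probes, all of which were kept. No probe used here carried GFI1B, which was therefore not analysed here. GATA1 binding was measured by ChIP-on-chip, that is, chromatin immunoprecipitation followed by hybridization to promoter arrays. The cells were Meg-01 without treatment, a human megakaryoblastic line established from the blast crisis of a chronic myeloid leukemia. DNA pulled down with the C-20 antibody to the C-terminus of GATA1 (the IP, labeled with Cy5) was hybridized together with DNA pulled down by normal goat IgG from the same chromatin (Cy3). The promoters were spread over 2 arrays, chIP1 and chIP2, that share no gene described here. KLF3, KLF4, KLF6, KLF10 and GFI1 were on chIP1, and KLF1, KLF2 and KLF13 were on chIP2. Each probe was hybridized once, so there was neither a replicate nor a dye swap, and no sample lacked GATA1. No value below therefore has a replicate error, no p-value was computed, and the order of genes with close values cannot be set.

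Krüppel-like factors are zinc finger proteins that bind GC-rich DNA and CACCC boxes, and they share their zinc fingers with the SP family. KLF1 (erythroid Krüppel-like factor) activates the adult β-globin gene and much of the red cell program, and in the progenitor shared by red cells and megakaryocytes it favors the red cell fate. KLF3 is a repressor that recruits the CtBP corepressors and is itself a target of KLF1. KLF2 is known for quiescence of T cells and endothelium, KLF4 for cell cycle arrest, monocyte differentiation and reprogramming, KLF6 as a widely expressed early response gene, KLF10 as a repressor induced by TGF-β, and KLF13 for chemokine expression in T cells. GFI1 and GFI1B are SNAG-domain repressors that recruit the LSD1 and CoREST complex. GFI1 acts in granulocytes, lymphocytes and stem cells, and GFI1B in red cells and megakaryocytes. GATA1 itself binds GATA sequences and is known to act with KLF1, FOG1 and the GFI1B complex at blood cell genes.

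Promoters are shown first for the genes with an enriched window within 500 bp of the annotated start (KLF1, KLF4 and GFI1) and for KLF2, which had none there. For GFI1 only 1 of its 3 RefSeq starts is shown. They are RefSeq promoters of GRCh38.p14, from 250 bases before to 50 bases after the start, written 5′ to 3′ along the gene. The build of the array's coordinates is not given in the sources used here, and the starts of the array were not aligned to those of RefSeq. Capitals mark matches to the GATA motif (AGATAA or TGATAA, or the same with G as the last letter) and to the CACCC box. Both were searched on both strands, so TTATCA and CTATCA are GATA matches of the opposite strand, and GGGTG is a CACCC match. The KLF1 promoter (chr19:12887152-12887451, minus strand) held GATA matches at -66 to -61 and at -13 to -8 and a CACCC match at 43 to 47, counted from the start. The second of 3 RefSeq starts of GFI1 (chr1:92486050-92486349, minus strand) held 1 GATA match at 9 to 14. It was the only one of the 3 with a GATA match, since the first and the third held none. Which of them the array's start of GFI1 corresponds to was not determined. The windows of KLF4 (chr9:107489720-107490019, minus strand) and KLF2 (chr19:16324576-16324875, plus strand) held no match to either motif.
KLF1: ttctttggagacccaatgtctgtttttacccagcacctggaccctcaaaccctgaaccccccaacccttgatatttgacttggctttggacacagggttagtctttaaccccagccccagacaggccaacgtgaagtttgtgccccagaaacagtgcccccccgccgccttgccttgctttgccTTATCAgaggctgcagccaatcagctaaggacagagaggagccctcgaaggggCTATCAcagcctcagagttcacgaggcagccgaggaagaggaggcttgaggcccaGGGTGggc
GFI1, second start: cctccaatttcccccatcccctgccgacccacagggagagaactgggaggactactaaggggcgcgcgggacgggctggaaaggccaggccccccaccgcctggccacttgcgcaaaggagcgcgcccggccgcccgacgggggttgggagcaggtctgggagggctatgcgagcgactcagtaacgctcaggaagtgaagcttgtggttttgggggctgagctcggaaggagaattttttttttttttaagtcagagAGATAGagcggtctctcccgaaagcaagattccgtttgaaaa
KLF4: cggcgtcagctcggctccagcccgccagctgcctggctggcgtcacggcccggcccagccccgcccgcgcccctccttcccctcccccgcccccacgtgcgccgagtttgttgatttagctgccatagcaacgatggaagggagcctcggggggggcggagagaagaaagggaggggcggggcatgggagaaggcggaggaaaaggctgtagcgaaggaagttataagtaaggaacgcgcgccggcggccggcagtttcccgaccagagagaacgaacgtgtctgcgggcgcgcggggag
KLF2: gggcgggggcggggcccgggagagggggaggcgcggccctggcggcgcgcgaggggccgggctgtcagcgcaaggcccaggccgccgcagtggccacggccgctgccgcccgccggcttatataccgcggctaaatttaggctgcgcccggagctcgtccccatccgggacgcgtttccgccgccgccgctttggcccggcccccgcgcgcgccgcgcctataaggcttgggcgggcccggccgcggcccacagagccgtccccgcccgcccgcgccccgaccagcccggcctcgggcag

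RefSeq gave 10 promoters for 7 of the 9 genes, KLF3 and KLF10 not being in the table. GATA letters stood in 4 of the 10, those of KLF1, of 1 start of GFI1 and of both starts of GFI1B. Of all 35116 RefSeq promoters, 25% held them. CACCC stood in 4 of the 10, those of KLF1, KLF13 and 2 starts of GFI1, against 59.9% of all promoters. The GC content was 80.7% for KLF2, 78.3% for KLF13, 70.7% for KLF6, 69.0% for KLF4 and 57.0% for KLF1. It was 63.3%, 59.7% and 66.7% for the starts of GFI1 and 47.3% and 42.3% for those of GFI1B, so the set lay on both sides of the median of 58.7% over all promoters. A match describes the letters of the window and is not evidence of binding.

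Most of these loci leaned toward the GATA1 IP. A probe's value was the log2 ratio of its processed Cy5 to its processed Cy3 intensity, each array being centered on a median of 0. A window was the mean of 3 adjacent probes with steps of at most 1000 bp. A window at 1 or above, that is 2-fold toward the IP, was called enriched, and a window at -1 or below was called IgG-side. Of the 8 genes, 7 had an enriched window, all but KLF3. The same was true of 57.1% of the 17054 genes with a window on the arrays, and of 60.8% of the 10517 genes with a similar number of windows (17 to 39), so an enriched window anywhere in a locus was a common event. Only 3 of the 8 genes, KLF4, KLF10 and GFI1, had an IgG-side window, against 52.9% of all genes and 59% of those with 17 to 39 windows. Of the 234 windows at these loci, 39 (16.7%) were enriched and 7 (2.99%) were IgG-side, where all 415409 windows gave 7.62% and 9.65%. The enriched windows were unevenly spread over the genes. KLF4 held 13, KLF1 8, GFI1 6, KLF2 5, KLF6 and KLF13 3 each, KLF10 1 and KLF3 none. Windows of a locus overlap and share probes, and adjacent probes of these genes within 300 bp correlated with r = 0.45 over 209 pairs (0.59 over 368017 pairs of all probes), so they are not independent measurements.

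**Figure D1:**
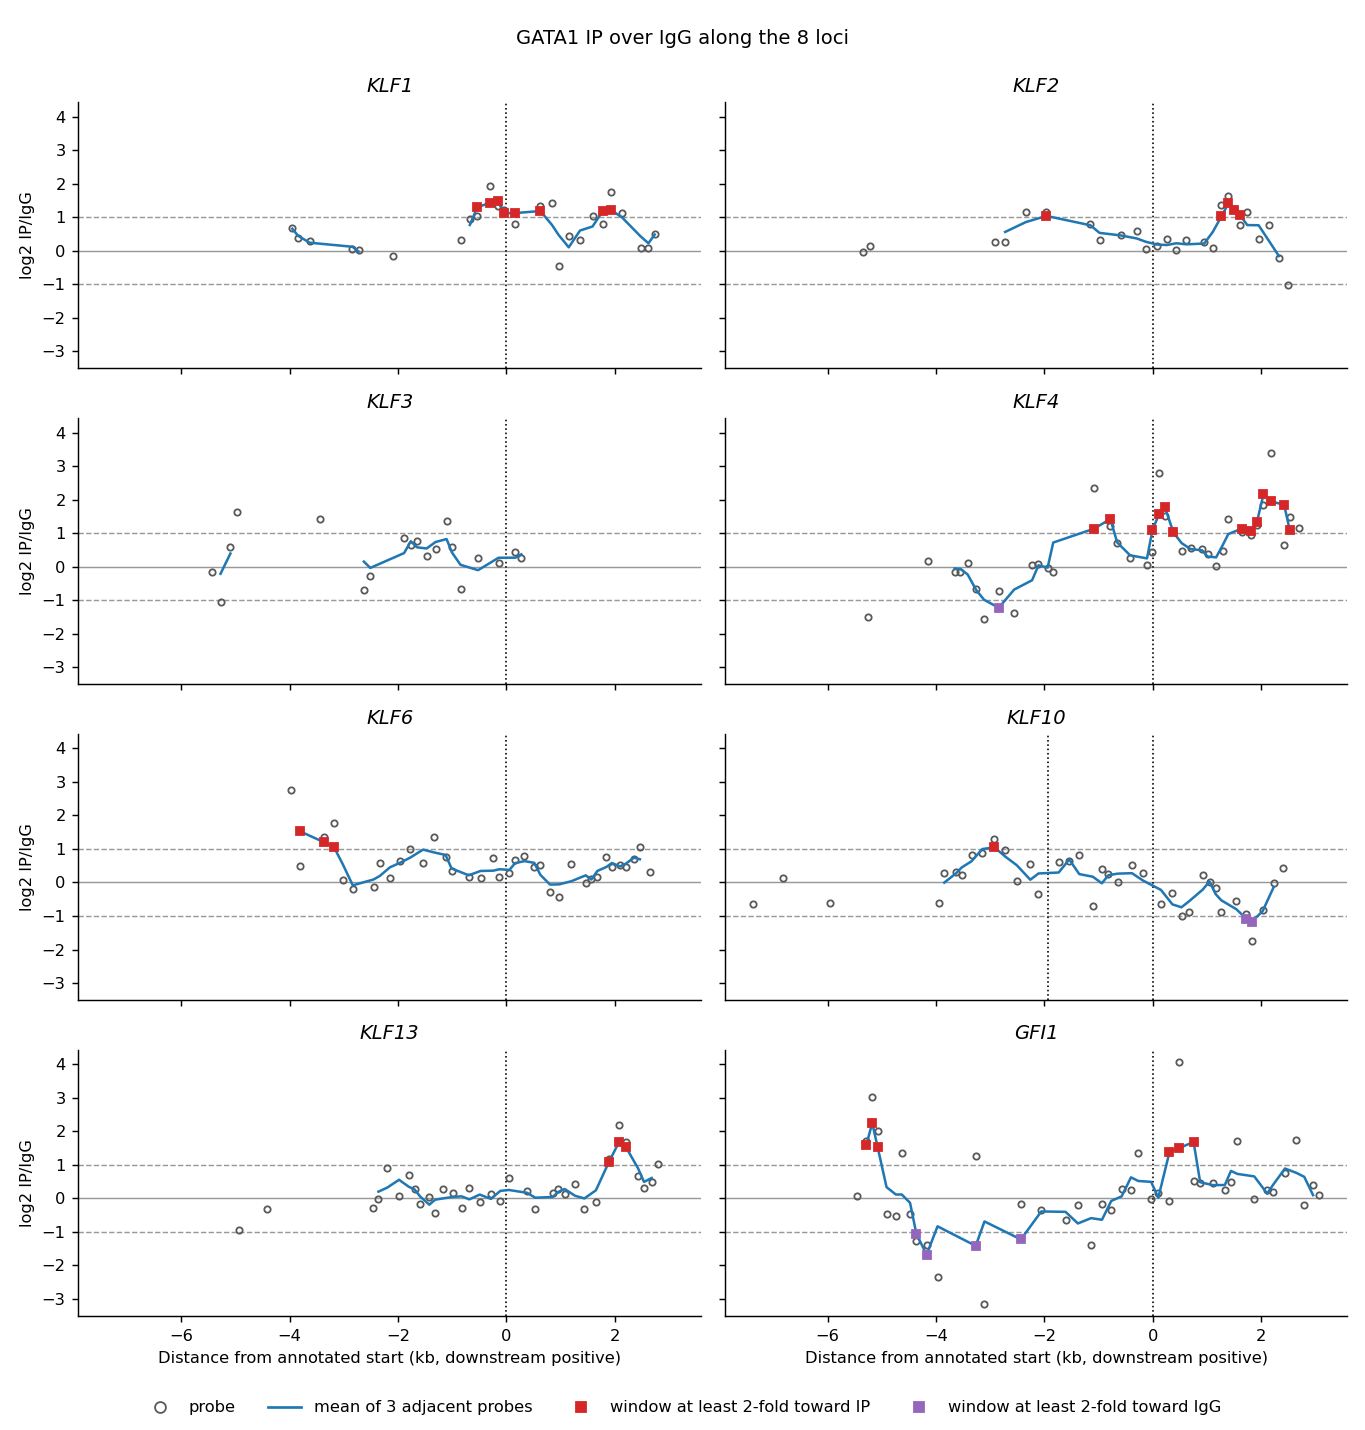
log2 IP over IgG (vertical axis) against the distance from the annotated start in kb (horizontal axis) for the 8 genes, open circles being probes, the line the mean of 3 adjacent probes, red squares enriched windows, purple squares IgG-side windows and dotted lines annotated starts. Enriched windows lie over the start of KLF1 and KLF4, away from the start in KLF2, KLF6, KLF10 and KLF13, and at the upstream edge and just inside the start of GFI1, while KLF3 has none. KLF10 has 2 annotated starts and is drawn from the downstream one.

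The genes differed in the height of their signal and in where it lay. The highest window was 2.25 for GFI1, 2.15 for KLF4, 1.69 for KLF13, 1.53 for KLF6, 1.49 for KLF1, 1.41 for KLF2, 1.05 for KLF10 and 0.82 for KLF3. Their median was 1.51, against a median of 1.09 over all genes with a window. Neighbors in this order differ by as little as 0.04, which these arrays cannot separate. The lowest window stood apart more than the highest one, since its median was -0.20 for these genes and -1.05 for all genes. In 5 of the 8 genes (KLF1, KLF2, KLF3, KLF6 and KLF13) the lowest window was above the 90th percentile of the genes on the same array. The mean of all probes was above 0 in 7 of 8 genes and above the 75th percentile of its array in the same 7, with KLF10 at the 44.1st percentile. These counts on lowest windows and probe means were not computed under other processing. The counts of genes with an enriched or an IgG-side window moved under normexp correction. That correction differs from the main values in more than the background. It starts from the uncorrected intensities, adds an offset of 50 to both channels and has no dye normalization beyond the array median of 0. After normexp correction, which fits and removes the background of each channel, 4 of the 8 genes (KLF1, KLF4, KLF10 and GFI1) and 33.1% of all genes had an enriched window, and none of the 8 had an IgG-side window, against 23.9% of all genes.

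**Figure D2:**
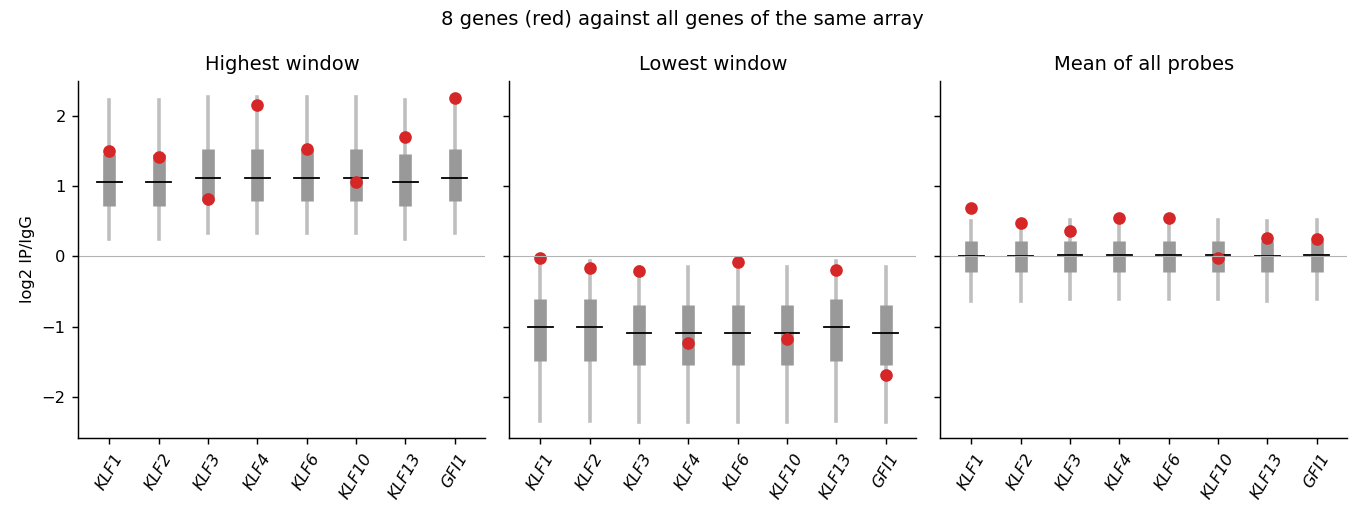
The highest window, the lowest window and the mean of all probes (log2 IP over IgG) of each gene in red, against all genes of the same array (bar, 25th to 75th percentile; thin line, 5th to 95th percentile; black tick, median). The highest windows of 6 genes lie above the median, and the lowest windows of KLF1, KLF2, KLF3, KLF6 and KLF13 lie close to 0, near the top of the range.

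The signal of KLF1 was broad and lay over its start. The gene was tiled by 25 probes from -3950 to 2737 bp on chromosome 19, and 8 of its 24 windows were enriched with none on the IgG side. From 841 to -674 bp (chr19:12858153-12859713 in the coordinates of the array), 8 consecutive probes read 1.42, 1.34, 0.79, 1.22, 1.34, 1.92, 1.03 and 0.95. All of them were at least 1.5-fold toward the IP, and the run ended at both sides, with -0.46 at 965 bp and 0.32 at -841 bp. A run of this length within 1 gene was present in 1.62% of 17279 genes, whose median longest run was 3 probes. This measure of run length was added after the values had been seen. The highest window, 1.49, was centered at -162 bp (chr19:12859044-12859336), in sequence that the array annotates as a divergent promoter. There the mean IP intensity was 3582 and the mean IgG intensity 1313, and the probes were bright, at the 78.4th percentile of intensity on average. The highest window of the gene was 1.46 after normexp correction and 1.32 after the trend with distance was removed.

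The rest of the KLF1 locus was lower upstream and mixed inside the gene. At -2087, -2725 and -2840 bp the probes read -0.15, 0.01 and 0.05, which gave the lowest window, -0.03. Farther out, at -3629, -3842 and -3950 bp, they read 0.28, 0.37 and 0.67, and no window there reached 1. Inside the gene a further pair of enriched windows, 1.22 and 1.20, was centered at 1929 and 1783 bp. Over all probes the locus averaged 0.69 ± 0.61 (SD over 25 probes of 1 hybridization). That mean was at the 98.2nd percentile of its array, while the highest window was at the 76.6th, so KLF1 stood out by breadth and not by height. Of its probes, 12 were also annotated to GCDH, the glutaryl-CoA dehydrogenase gene on the opposite strand. The highest of these probes, 1.92, lay at -294 bp from the KLF1 start and at -3662 bp from the GCDH start. GCDH shared the enriched window of 1.49, and these data do not assign it to either gene.

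KLF4 had the most enriched windows, 13 of 34, in separate stretches. The highest window, 2.15, was centered at 2041 bp inside the gene (chr9:107329110-107329411) and rested on probes of 3.39, 1.83 and 1.24. It belonged to a run of 9 probes from 1392 to 2701 bp (chr9:107328580-107329941) that read between 0.64 and 3.39 with a mean of 1.46. A run at least as long was present in 0.793% of genes. The shares for run length given here were not matched for the number of windows. KLF4 had 34 windows, against a median of 23 per gene, and more windows leave more room for a long run. A second stretch lay over the start, with 4 enriched windows between -7 and 379 bp and a highest window of 1.79 at 220 bp. It leaned on the probe at 117 bp, which read 2.78 at an IgG intensity of 41.2, was at the 3.5th percentile of intensity and read 0.40 after normexp correction. Its neighbors at 220 and 379 bp read 1.52 and 1.06, and those at -7 and -108 bp read 0.44 and 0.05. Another stretch at -784 and -1079 bp held probes of 1.21 and 2.34, of which the latter was 2.01 after normexp correction.

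Farther upstream the sign of the KLF4 signal turned. The window at -2843 bp (chr9:107333839-107334454) read -1.23, from probes of -1.38, -0.74 and -1.57, and was the only IgG-side window of the gene. The farthest probe, at -5258 bp, read -1.52. Probes more than 500 bp inside the gene averaged 1.04 ± 0.82 (SD over 15 probes), and the 14 probes more than 1000 bp upstream averaged -0.26 ± 0.97. Over the whole locus the mean was 0.54 ± 1.07 (SD over 37 probes), at the 95.6th percentile of the array.

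KLF2, KLF6 and KLF13 had their enriched windows away from the start. In KLF2, on chromosome 19 as well, 5 of 22 windows were enriched. Its highest window, 1.41, was centered at 1394 bp inside the gene (chr19:16297892-16298167) on probes of 1.36, 1.62 and 1.24. They belonged to a run of 5 probes from 1264 to 1742 bp, a length that 15% of genes reached. A single enriched window upstream, 1.04, was centered at -1964 bp. Around the start the 5 probes within 500 bp read from 0.01 to 0.58, all below 1. After normexp correction the probes of the window at 1394 bp read 0.422, 0.755 and 0.882. The highest window of the gene was then the one at -1964 bp, with 0.97, just under 2-fold.

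KLF6 was even in tone, with 35 windows of which 3 were enriched and a mean of 0.54 ± 0.59 (SD over 37 probes), at the 95.5th percentile of the array. The enriched windows lay at the far upstream edge, the highest being 1.53 at -3815 bp (chr10:3820792-3821457). The outermost probe of that window, at -3972 bp, read 2.75 at an IgG intensity of 74.3 and an IP intensity of 500.2, and 0.81 after normexp correction. The other probes there read 0.49 at -3815 bp, 1.35 at -3366 bp and 1.76 at -3184 bp. A bright probe at -1334 bp read 1.36 at an IP intensity of 5166 and an IgG intensity of 2012, and the 3 windows that contain it stayed below 1.

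KLF13 carried 3 enriched windows among 30, all between 1890 and 2208 bp inside the gene. The highest was 1.69 at 2079 bp (chr15:29408235-29408604), from probes of 1.16, 2.20 and 1.70 with mean intensities of 610 in the IP and 196 in the IgG channel. These probes were dim, at the 20.1st percentile of intensity on average, and after normexp correction the highest window of the gene was 0.74. The 12 probes more than 1000 bp upstream averaged 0.01 ± 0.50, and the 5 within 500 bp of the start averaged 0.16 ± 0.29. Apart from the stretch inside the gene, the locus was therefore near the array median.

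KLF3 and KLF10 had the lowest values of the highest window, although KLF13 had a lower mean of all probes than KLF3. KLF3 was tiled by 19 probes from -5427 to 275 bp on chromosome 4, so the body of the gene was barely covered. Its highest window was 0.82 at -1103 bp (chr4:38487052-38487407), at the 27.3rd percentile of the array. Single probes reached 1.64 at -4962 bp and 1.43 at -3440 bp, but their neighbors were lower or too far away to form a window with them. The mean of its probes, 0.36 ± 0.72, was nonetheless at the 87.2nd percentile. Around the start the 3 probes within 500 bp read 0.11, 0.43 and 0.27.

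KLF10 was the one gene without a lean toward the IP, with a mean of -0.03 ± 0.68 (SD over 37 probes). The array annotates 2 starts of this gene, 1932 bp apart, and each probe carries the distance to 1 of them. The enriched window, 1.05 at -991 bp (chr8:103737894-103738365), lay upstream of both starts, on probes of 0.96, 1.30 and 0.88. Inside the gene the signal went the other way, with 2 IgG-side windows and a lowest value of -1.17 at 1825 bp (chr8:103733142-103733502) from probes of -0.81, -1.74 and -0.95. The 12 probes more than 500 bp inside the gene averaged -0.53 ± 0.63. Of all 7 IgG-side windows of the 8 genes, those of KLF10 were the only ones over the median brightness of the array, at the 67.5th and 58.2nd percentile of intensity.

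GFI1 had both the highest and the lowest window of the 8 genes. It was tiled by 41 probes from -5467 to 3068 bp on chromosome 1, with 6 enriched and 4 IgG-side windows among 39. The highest window, 2.25, lay at the far upstream edge, centered at -5177 bp (chr1:92669506-92669760), with probes of 2.02, 3.03 and 1.72 at -5077, -5177 and -5283 bp. All 3 probes were high, with a mean IP intensity of 1279 and a mean IgG intensity of 272. They read 1.44, 1.91 and 0.98 after normexp correction. The next probes on either side, at -4913 and -5467 bp, read -0.47 and 0.08, so the signal was narrow.

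The enriched windows near the GFI1 start rested on a single probe. That probe, at 490 bp, read 4.06 with an IP intensity of 1472.5 and an IgG intensity of 88.4, while its neighbors at 752 and 307 bp read 0.53 and -0.07. All 3 enriched windows between 307 and 752 bp contain it. Upstream of the start a second isolated probe, at -269 bp, read 1.35 between neighbors of -0.03 and 0.25. Between -2434 and -4363 bp lay the 4 IgG-side windows, the lowest being -1.68 at -4174 bp (chr1:92668397-92668847) from probes of -2.36, -1.40 and -1.28. Their probes were mostly dim, and the windows averaged between the 2.4th and 25.5th percentile of intensity. One of these windows, at -3268 bp, contains a probe of 1.26 for which the scanner software had put in a surrogate value. This window and the one at -2434 bp also contain the probe at -3106 bp, which read -3.14. Its intensities were 8.6 (IP) and 76.4 (IgG), at the 0.2nd percentile, and it read -0.83 after normexp correction. In the window at -2434 bp the other probes read -0.35 and -0.17, so its IgG-side call rested on that probe.

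**Figure D3:**
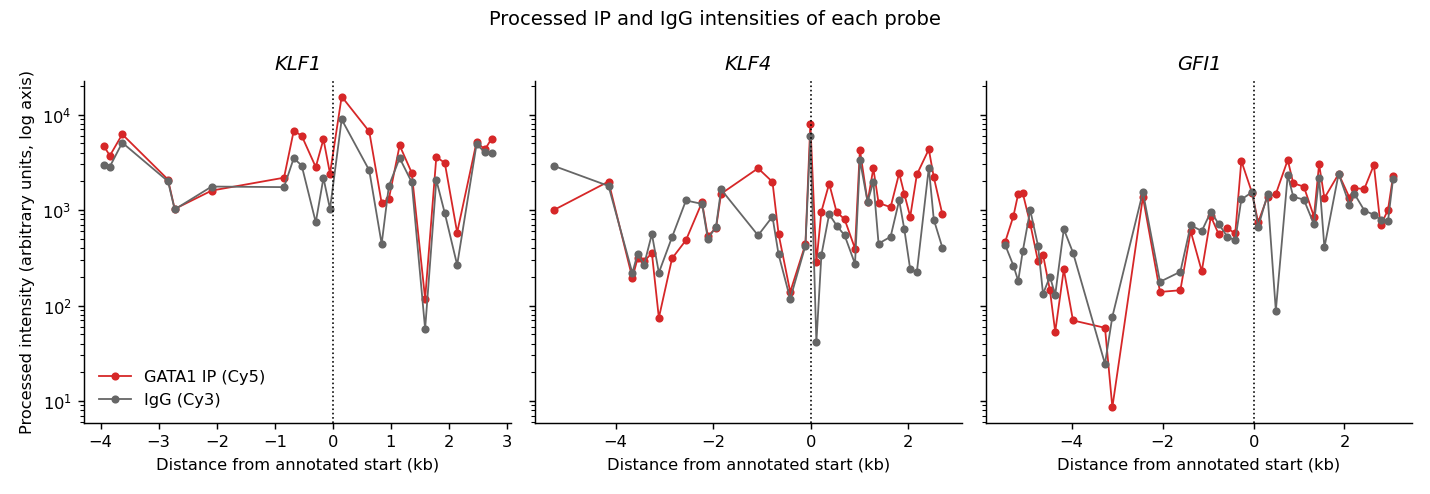
Processed intensities on a log axis against the distance from the annotated start in kb for the probes of KLF1, KLF4 and GFI1, with the GATA1 IP in red and the IgG in gray, and lines joining neighboring probes. Over the KLF1 start the IP lies above the IgG at every probe from -674 to 841 bp, whereas the peak of GFI1 at 490 bp is 1 probe whose IgG intensity drops to 88.4.

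Near the start, 3 of the 8 genes had an enriched window centered within 500 bp, namely KLF4 (1.79), GFI1 (1.5) and KLF1 (1.49). The same was true of 24.6% of the 16445 genes with a window there. The highest window in that stretch was 0.64 for KLF6, 0.37 for KLF2, 0.36 for KLF3, 0.28 for KLF10 and 0.25 for KLF13. None of the 8 genes had an IgG-side window there, as 9.33% of genes did. After normexp correction, the probes of the highest near-start window read 1.195, 1.437 and 1.742 in KLF1. They read 0.951, 1.003 and 0.395 in KLF4 and 0.72, 2.105 and 0.04 in GFI1, so all 3 were above 1 in KLF1 only. The mean of the 3 probes was above 1 in KLF1 and below 1 in KLF4 and in GFI1. The share of all genes near the start is not given here for normexp values. On these arrays the mean of all probes itself peaked at the start, at 0.26 in the 500 bp upstream and 0.25 in the 500 bp downstream, and was -0.19 between 2000 and 4000 bp upstream. The mean over the 8 genes was 0.41 ± 0.47 and 0.62 ± 0.71 (SD over genes) in the same 2 steps around the start. The largest distance between the members and all probes was farther inside the genes, where 7 members with probes between 2000 and 4000 bp averaged 0.57 ± 0.66 against -0.13. That step was 1.70 in the highest gene and -0.16 in the lowest, so it was not shared by all of them.

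**Figure D4:**
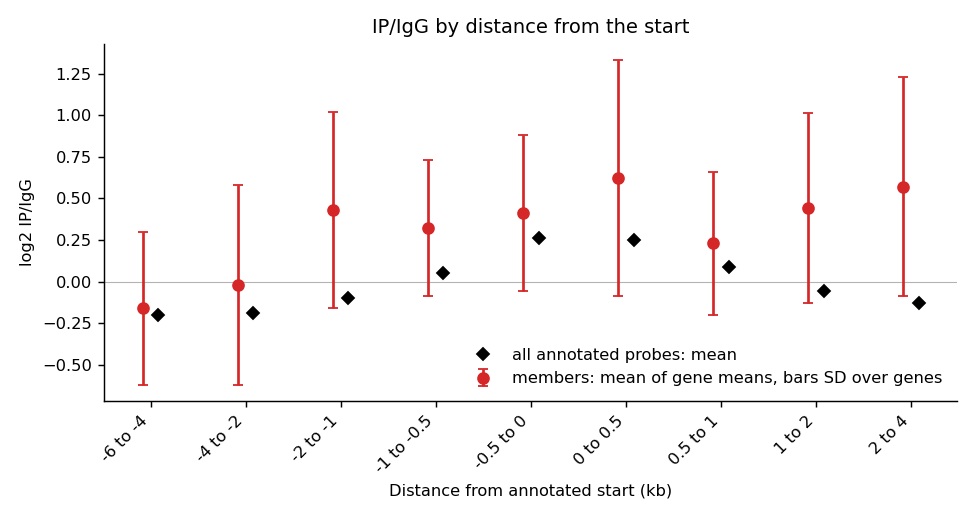
Mean log2 IP over IgG by distance from the annotated start in kb, red circles being the mean over genes of each gene's mean (bars, SD over genes) and black diamonds the mean of all annotated probes. The bars of the genes include the mean of all probes in most steps, and the red circles lie farthest above the diamonds from 1 to 4 kb inside the genes and from 1 to 2 kb upstream.

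Genes of the same pathways, listed by name, lay on both sides of the shares of all genes (57.1%) and of all windows (7.62%) on the enriched side. On the IgG side they were at or below the 52.9% of all genes. Of 19 other KLF and SP genes, 17 had a window, and 12 of them had an enriched and 9 an IgG-side window, with a median highest window of 1.22. That is 70.6% and 52.9% of the 17 genes, and 11.9% of their 529 windows were enriched. The highest was KLF12, a repressor of the family, at 3.53, and the lowest was KLF11, a TGF-β induced relative of KLF10, at 0.51. KLF12 had 70 windows, of which 5 were enriched and 21 IgG-side, and its probes averaged -0.3, toward the IgG. KLF11 had only 16 windows. KLF7, which the study lists among its genes, reached 1.47. Of 19 cofactors of these proteins (CtBP, CoREST and HDAC complexes and coactivators), 8 had an enriched and 8 an IgG-side window, with a median of 0.92. That is 42.1% of the genes for each side, and 4.08% of their 735 windows were enriched. They ranged from AJUBA, a LIM protein that binds GFI1, at 2.03 to SMARCA4, a chromatin remodeling ATPase that KLF1 works with, at 0.41. AJUBA had 38 windows and SMARCA4 had 10. Of 18 genes known as targets of KLF1, GFI1 or GFI1B, 17 had a window, 10 an enriched and 7 an IgG-side one, with a median of 1.11. That is 58.8% and 41.2% of the genes, and 13% of their 606 windows were enriched. The highest was MEIS1, a homeobox gene repressed by GFI1B, at 3.24, and the lowest CSF1, the macrophage growth factor, at 0.50. KLF8, a target of KLF1 and KLF3, stands in both the family list and the target list, so its 21 enriched windows enter both window shares. Of the 79 enriched windows of the target list, MEIS1 and ID2 held 14 each and GATA2 held 13. IgG-side windows made up 9.07% of the windows of the family list, 6.67% for the cofactors and 5.61% for the targets. All windows gave 9.65%.

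The height of the highest window changed under normexp correction more in some genes than in others. After normexp correction the highest window was 1.46 in KLF1, 1.05 in KLF10, 0.87 in KLF3, 1.49 in KLF4 and 1.44 in GFI1. In KLF10 the 1.05 came from the next window, at -1215 bp. The probes of the KLF10 window at -991 bp then read 0.681, 1.295 and 0.987. In KLF3 the 0.87 lay at -1764 bp. The probes of the KLF3 window at -1103 bp then read 0.553, 0.183 and 0.082. The highest windows of KLF2, KLF6 and KLF13 were then 0.97, 0.99 and 0.74. In KLF6 the 0.99 lay at -1538 bp, where the main value was 0.98. The probes of the KLF6 window at -3815 bp then read 0.731, 0.368 and 0.806. Each highest window is the highest anywhere in the locus, which need not lie near the start. Only in KLF1 and GFI1 was it the same window as in the main values. With the median in place of the mean of the 3 probes (a setting chosen after seeing the data), the highest windows of KLF4 and GFI1 were 1.83 and 2.02, and KLF10 dropped below 2-fold, to 0.96. With windows of 5 probes, GFI1 fell to 1.27 and KLF4 to 1.71.

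**Figure D5:**
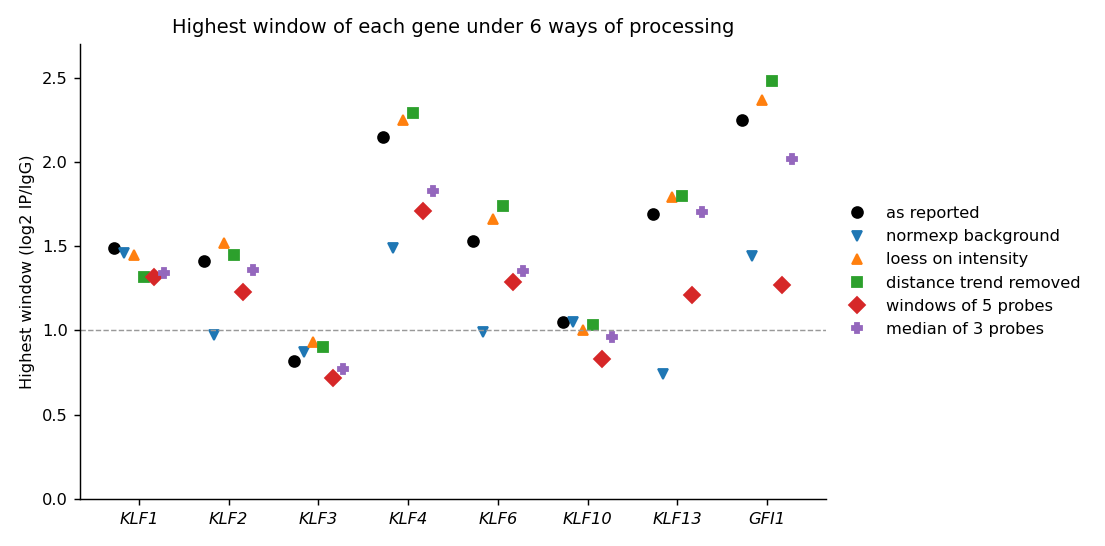
Highest window (log2 IP over IgG, vertical axis) of each gene as reported (black circles) and under 5 other ways of processing, with a dashed line at 2-fold. KLF1 lies between 1.32 and 1.49 in all of them, GFI1 between 1.27 and 2.48, and KLF3 below the line throughout.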

How the data were processed

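Arrays were scanned by the authors, and per the file headers the deposited intensity values came from Agilent Feature Extraction 9.5.3.1. The deposited processed intensities are background-surface subtracted and dye-normalized, the deposited mean and local background intensities are uncorrected, the deposited log10 ratio is Cy5 over Cy3, and the deposited p-value is that of the scanner software's error model. A series-wide table deposited beside them repeats that log10 ratio. The peak calling of the study was not repeated.

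Probes had to be well above background in at least 1 channel, and control spots and non-uniformity outliers were dropped, leaving 237004 and 236864 genomic probes (chIP1, chIP2). Median mean signals were 542.6 and 544.4 (IP) and 412.3 and 439.8 (IgG), against 341.7, 340.3, 302.5 and 302.9 for negative controls. The 480 spots of 1 control probe had an SD of 0.048 and 0.044 (log2), which covers spotting error only. Precision is limited by the number of arrays. A window belonged to every gene annotated to any of its probes. Enriched windows needed a mean of at least 1 (log2), and of several distances listed for a probe and gene the smallest was used. The script was tested on simulated data. Python 3.11.15 with numpy 2.4.6, R 4.3.3 and limma 3.58.1 were used.

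The genes, lists and rule for named genes (the 9 genes, genes sharing their probes, the highest and lowest gene of each list, and KLF7) were chosen with earlier results of these data known. The alternatives were normexp (offset 50) and loess (span 0.3), the deposited value table, 2 filters on dim probes, single probes, windows of 5 probes, 1.5-fold and 3-fold thresholds, removal of the trend with distance (steps of 500 bp to 6000 bp), and a rule on the deposited p-values (center probe under 0.001, a neighbor under 0.1). The median of 3 probes and the run length were chosen after seeing the data.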

Additional observations from a re-analysis of the deposited data

How the results depend on the processing

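Each ratio pairs the IP with the IgG of the same spot. No gene described here is on both arrays, so no value of these genes could be compared between arrays. Each value rests on 1 hybridization. After normexp background correction 4 of the 8 genes had an enriched window and 0 an IgG-side one, with 15 enriched and 0 IgG-side windows, and enriched windows were present in 6 other KLF and SP genes and 5 cofactor genes. At a threshold of 3-fold these counts were 3 and 1 genes, 8 and 1 windows, and 5 other KLF and SP, 3 cofactor and 6 target genes. At 1.5-fold there were 80 enriched and 19 IgG-side windows, with 16 cofactor and 16 target genes. Single probes gave 5 genes with an IgG-side probe, 12 such probes, and 15 cofactor and 16 target genes. Windows of 5 probes gave 1 gene with an IgG-side window, 2 such windows, and 7 other KLF and SP and 5 cofactor genes. The rule on deposited p-values gave 15 cofactor genes. Beside these stand the shares of all genes with an enriched and with an IgG-side window. They were 33.1% and 23.9% after normexp correction, 20.6% and 22.3% at 3-fold and 85% and 78.4% at 1.5-fold. Single probes gave 86.1% and 81.1%, windows of 5 probes 34.1% and 33.5%, and the rule on p-values 85.2% and 79.8%. All other counts were within 1.5 times the reported ones, and the median highest window of the 8 genes stayed above 2-fold in each alternative that gives one (1.02 after normexp correction, 1.25 with windows of 5 probes). Of 72 highest windows of single genes under alternatives, 65 stayed on their side of 2-fold. The highest window could lie at another place in the locus than in the main values. The other 7 were KLF2, KLF6 and KLF13 after normexp correction, KLF10 after loess, with windows of 5 probes and with the median of 3 probes, and KLF3 with single probes. Part of this agreement was fixed in advance. The deposited value table repeats the same ratios, and all 256 probes of these genes had already passed the filter on dim probes. The highest probe of a window also cannot lie below the mean of its 3 probes. No highest window changed sign, which says little for a maximum taken over 17 to 39 windows. The cause of these changes was not tested.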
